A study of Mus musculus with 4 samples.

Results

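Basophil and eosinophil-primed cells were a small population among the LSK cells (Lineage- Sca1+ c-Kit+, the sorted fraction that holds blood stem cells and early progenitors) of the mouse fetal liver at stage E17.5. They were chosen by their own transcripts: a cell was taken as a member when it carried at least 3 UMIs (unique molecular identifiers, each standing for 1 captured RNA molecule) of Mcpt8, Ms4a2, Prss34 and Prg2 together and fewer than 4 UMIs of the mast cell protease genes Cma1 and Tpsb2. Among barcodes with at least 8000 gene UMIs and at most 10% mitochondrial UMIs, 121 of 8094 cells were members. The Vav-Cre:Bclaf1f/f library (KO) held 74 members of 2742 cells, and the Bclaf1f/f library (labelled WT) held 47 of 5352. Both genotypes carried the floxed Bclaf1 alleles, and only the KO carried Vav-Cre, a recombinase driven by a promoter active in blood cells, so the presence of Cre and the loss of Bclaf1 cannot be told apart. Each genotype was 1 library of RNA and antibody tags, made from a pool of 10 embryos. There was thus no replicate, no test was possible, and each interval given here is a 95% interval that covers counting error only.

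Basophils and eosinophils are granulocytes that arise from myeloid progenitors and are known for their part in allergy and in defence against parasites. The transcription factors GATA2 and C/EBPalpha direct progenitors towards these lineages, and C/EBPepsilon is needed for eosinophil maturation. Basophils and mast cells share the high-affinity IgE receptor, histamine synthesis and several proteases, so their progenitors are hard to separate by any single transcript. Of the genes that chose the cells, Mcpt8 encodes a basophil protease, Prss34 a protease of basophils and mast cells, Ms4a2 the beta chain of the IgE receptor, and Prg2 the major basic protein of eosinophil granules.

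Sca1, CD34 and CD117 were the surface antigens whose median share of a cell's antibody UMIs differed in 1 direction in members of both libraries under all alternatives tried. Their antibody barcodes are shown because they are the molecules that were counted. Each is printed 5′ to 3′ in lower case.
Sca1 tag: gtccgactaatagct
CD34 tag: aaactcaggtccttc
CD117 tag: tgcatgtcatcggtg

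The promoters of 3 genes that mark different member cells are shown as RefSeq gives them on GRCm38.p6, from 250 bases before to 50 bases after the annotated start, on the strand of the gene. Capitals mark letters that match a GATA or a RUNX motif on either strand. The GATA motif was searched as AGATAA, with its variant spellings AGATAG for a last base of G, TGATAA for a first base of T, and TGATAG for both changes. The RUNX motif was searched as TGTGGT, with the variant spelling TGCGGT. No capital stretch here belongs to both motifs.
Ms4a2, chr19:11623670-11623969, minus strand: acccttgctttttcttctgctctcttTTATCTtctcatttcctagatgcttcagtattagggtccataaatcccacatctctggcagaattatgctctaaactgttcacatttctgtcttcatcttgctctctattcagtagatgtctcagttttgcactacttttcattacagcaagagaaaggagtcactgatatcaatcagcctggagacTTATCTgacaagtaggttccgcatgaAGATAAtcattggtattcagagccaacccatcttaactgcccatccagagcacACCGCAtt
Mcpt8, chr14:56085148-56085447, minus strand: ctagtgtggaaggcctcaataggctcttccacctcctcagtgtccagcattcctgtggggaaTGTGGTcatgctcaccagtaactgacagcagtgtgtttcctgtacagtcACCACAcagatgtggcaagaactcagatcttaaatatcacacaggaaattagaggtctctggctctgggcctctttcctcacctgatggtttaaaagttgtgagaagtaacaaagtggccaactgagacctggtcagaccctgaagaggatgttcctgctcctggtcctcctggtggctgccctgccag
Prg3, chr2:84987965-84988264, plus strand: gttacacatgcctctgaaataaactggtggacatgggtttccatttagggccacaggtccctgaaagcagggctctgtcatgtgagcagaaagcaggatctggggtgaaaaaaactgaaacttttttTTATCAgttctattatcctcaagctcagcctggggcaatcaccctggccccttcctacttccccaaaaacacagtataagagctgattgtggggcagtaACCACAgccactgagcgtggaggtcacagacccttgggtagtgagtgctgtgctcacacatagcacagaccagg
The Ms4a2 window held 3 GATA matches, the Mcpt8 window 0 and the Prg3 window 1, while 29.8% of 32851 promoter windows of the same length held at least 1. RUNX matches numbered 1, 2 and 1, against 22.4% of all windows with at least 1. The motif TTGCNNAA, bound by C/EBP factors, was found in none of these 3 windows and in 10.8% of all windows. A further window found, that of the rule gene Prss34, is not printed and held 1 GATA, 1 RUNX and 0 C/EBP matches. A match describes the letters only, and no binding was measured.

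The libraries differed in depth. Called cells had a median of 33481 gene UMIs in KO and 22701.5 in WT. Members were deep in both, with medians of 37748 UMIs (8214 to 147812) in KO and 34202 (13594 to 121978) in WT, against 33312 in the other KO cells and 22607 in the other WT cells. Cells with over 2 times the median UMIs of their library made up 8.11% of KO members and 10.3% of the other KO cells, but 27.7% of WT members and 8.61% of the other WT cells. No doublet caller was used. The libraries shared 5 cell barcodes, none of which belonged to a member. Median mitochondrial shares were 3.92% in KO members and 3.69% in WT members.

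The 4 genes that chose the members were not found together in most of them (plot of UMIs per member cell). Ms4a2 was present in 61 of 74 KO members and 34 of 47 WT members. Mcpt8 was present in 28 KO and 19 WT members. Prss34 was present in 29 KO and 14 WT members, and Prg2 in 9 KO and 5 WT members. Only 1 of the 4 genes was detected in 35 KO and 32 WT members. Summed over members, levels in CPM, the UMIs of a gene scaled to a common total of gene UMIs, were 295 in KO and 218 in WT for Ms4a2, 92.8 and 101 for Mcpt8, 133 and 67.9 for Prss34, and 218 and 16.7 for Prg2. These values follow from the rule and describe the members only. The highest KO cell alone held 183 UMIs of Prg2.

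Near the threshold, 8 KO and 6 WT members had exactly 3 marker UMIs, and 11 KO and 12 WT cells with exactly 2 fell outside. The median member had 14.5 marker UMIs in KO and 10 in WT. The mast cell limit separated cells far apart. Every member had at most 2 UMIs of Cma1 and Tpsb2 in KO and at most 1 in WT, whereas the 30 KO and 30 WT cells it removed had at least 481 in KO and at least 304 in WT. The whole 8-gene mast cell protease list summed to 6.01 CPM in KO members, with 5 genes at 0, and to 4.45 CPM in WT members, with 6 at 0. In mast cells, those past the limit, it summed to 37356 CPM in KO and 32412 in WT. The list holds Cma1 and Tpsb2, which set the limit, so this contrast is largely fixed by the rule. In mast cells Cma1 and Tpsb2 stood at 23216 and 13108 CPM in KO, and at 18557 and 13270 CPM in WT. In members they stood at 3.01 and 2.00 CPM in KO, and at 2.78 and 1.67 CPM in WT. Lymphoid transcripts (Dntt, Il7r and Rag1) marked 106 KO and 157 WT cells, which should lack the marker genes. They were taken among non-members, so cells with 3 or more marker UMIs had been removed beforehand. Of these lymphoid cells, 1.89% in KO and 0.637% in WT carried 1 marker UMI, at median depths of 31763.5 and 21299 UMIs. None carried 2, which allows a share of up to 2.83% in KO and 1.91% in WT for that count alone. How often lymphoid cells reach 3 marker UMIs cannot be read from them. Among granulocyte-monocyte-primed cells, taken as non-members with at least 20 UMIs of Elane, Prtn3, Ctsg and Ms4a3 together, 10.4% of 433 KO cells and 7.92% of 581 WT cells carried at least 1 marker UMI, at median depths of 47459 and 36381 UMIs, and 8 KO and 10 WT cells carried 2.

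**Figure D1:**
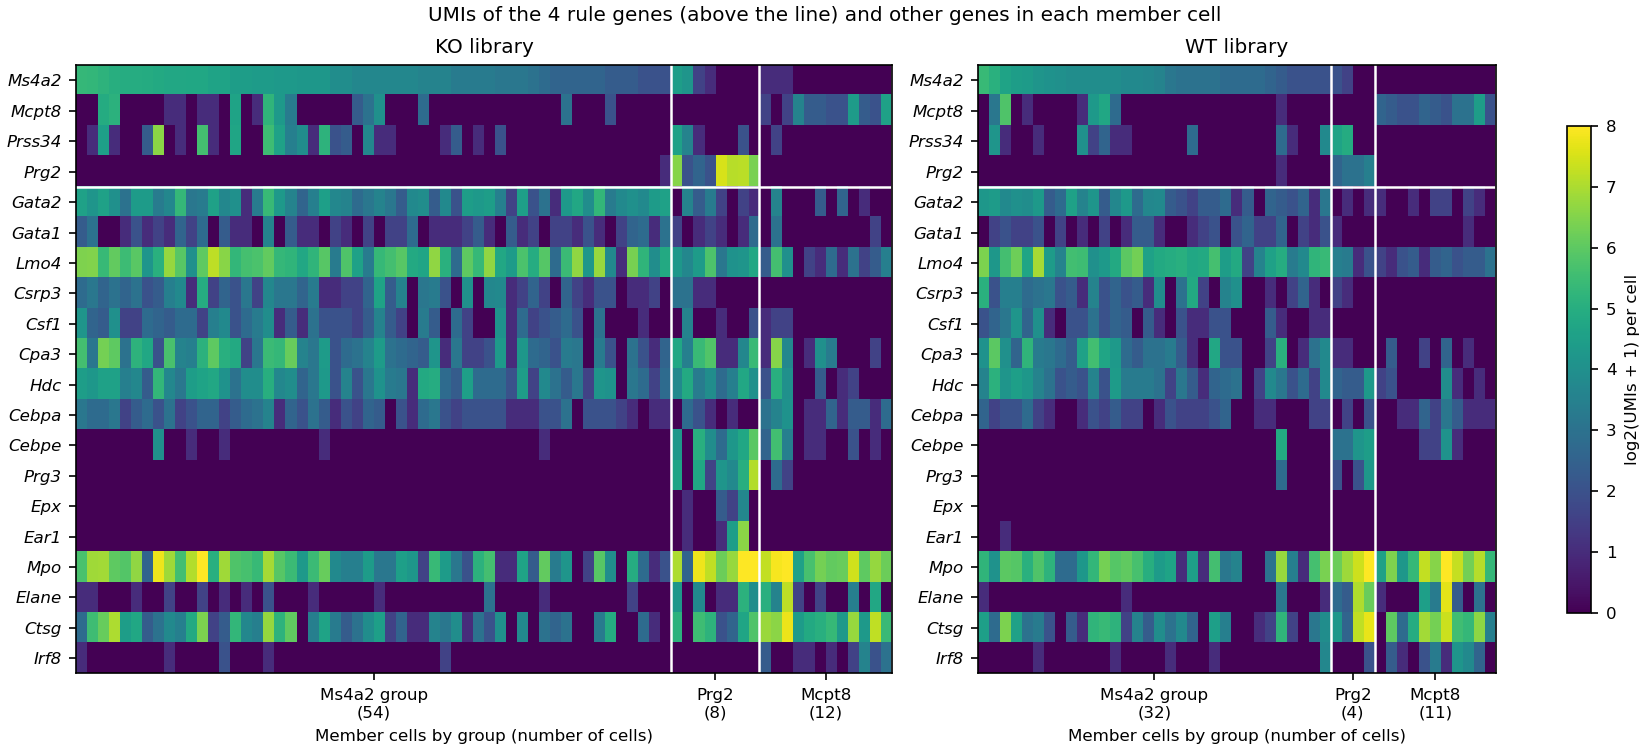
UMIs per cell, as log2(UMIs + 1), for 20 genes (rows) in 74 KO and 47 WT member cells (columns), KO on the left. Columns are ordered by group, and the rows above the white line are the 4 rule genes. Gata2, Lmo4 and Csrp3 fill the Ms4a2 group, with Lmo4 found in the other groups too. Prg3 and Cebpe fill the Prg2 group, and Ctsg and Mpo run strongly through both the Mcpt8 and the Prg2 group.

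Members fell into 3 kinds by which marker they carried. This split was made after the values were seen and is a description. The Ms4a2 group, with at least 3 UMIs of Ms4a2 and fewer than 3 of Prg2, held 54 KO and 32 WT cells. The Prg2 group, with at least 3 UMIs of Prg2, held 8 KO and 4 WT cells. The remaining 12 KO and 11 WT cells, called the Mcpt8 group since 11 and 11 of them carried Mcpt8, had at most traces of Ms4a2.

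Gata2, Csrp3, Lmo4 and Csf1 were highest in the Ms4a2 group. Gata2, a transcription factor of stem cells, mast cells and basophils, was found in 54 of 54 KO cells at 375 CPM and in 31 of 32 WT cells at 252 CPM. In the Mcpt8 group it stood at 33.2 CPM in KO and 17.2 CPM in WT. Csrp3, a LIM-domain protein best known from muscle, stood at 145 CPM in KO and 178 CPM in WT cells of the Ms4a2 group, with 0 UMIs in the Mcpt8 group of either library. Lmo4, a LIM-only transcriptional cofactor, had 1262 CPM in KO and 1015 CPM in WT cells of the Ms4a2 group, and 158 CPM in KO and 72.8 CPM in WT cells of the Mcpt8 group. Csf1, the macrophage growth factor M-CSF, had 118 CPM in KO and 91.8 CPM in WT cells of the Ms4a2 group, against 7.90 CPM in KO and 0 in WT cells of the Mcpt8 group. These 4 genes thus separated the Ms4a2 group from the Mcpt8 group in the same direction in both libraries. The Prg2 group carried them too, and in KO lay between the other groups. Its KO cells had 97.6 CPM of Gata2, 53.9 CPM of Csrp3, 576 CPM of Lmo4 and 50.5 CPM of Csf1. Its WT cells had 12.1 CPM of Gata2, 18.2 CPM of Csrp3, 140 CPM of Lmo4 and 0 of Csf1.

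The Prg2 group carried further eosinophil genes. Prg3, a second granule major basic protein, was found in 7 of 8 KO cells at 832 CPM and in 3 of 4 WT cells at 146 CPM. Cebpe stood at 589 CPM in KO and 316 CPM in WT cells of the Prg2 group, and at 9.20 CPM in KO and 25.2 CPM in WT cells of the Ms4a2 group. Epx, which encodes eosinophil peroxidase, was found in 4 of 8 KO cells and 0 of 4 WT cells. Ear1, an eosinophil ribonuclease, was likewise found in 4 of 8 KO cells and 0 of 4 WT cells of this group. With 4 WT cells, absence of either gene cannot be read from these counts. The Ear genes are close paralogs whose reads can be shared, so values of single Ear genes are uncertain.

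The Mcpt8 group went against the label in most of what it carried, and the Prg2 group carried neutrophil genes too. Ctsg and Mpo encode the granule proteins cathepsin G and myeloperoxidase of neutrophils and monocytes. They stood at 1387 and 2248 CPM in KO cells and at 1253 and 2443 CPM in WT cells of the Mcpt8 group. In the Ms4a2 group Ctsg stood at 459 CPM in KO and 383 CPM in WT, and Mpo at 1179 CPM in KO and 936 CPM in WT. The Prg2 group stood at 680 CPM of Ctsg and 4090 CPM of Mpo in KO, and at 2325 and 4177 CPM in WT. Elane, neutrophil elastase, had 273 CPM in KO and 1281 CPM in WT cells of the Prg2 group, and 365 and 467 CPM in the Mcpt8 group. Some of these levels rested on few cells. Over the 4 WT cells of the Prg2 group, Elane ranged from 4 to 130 UMIs and Ctsg from 5 to 212. In the Mcpt8 group, 1 cell held 147 of 231 Elane UMIs in KO and 201 of 244 in WT. Summed over the 12 neutrophil and granulocyte-monocyte genes, the Prg2 group had 7147 CPM in KO and 16078 CPM in WT, while the eosinophil genes, Prg2 included, summed to 3851 and 383 CPM. In the Mcpt8 group the neutrophil list summed to 6606 CPM in KO and 6728 CPM in WT. Irf8, a transcription factor of monocytes and dendritic cells, was found in 8 of 12 KO and 8 of 11 WT cells of the Mcpt8 group, and in 5 of 54 KO and 5 of 32 WT cells of the Ms4a2 group. A UMI of Ms4a2 was found in 3 of 12 KO and 0 of 11 WT cells of the group, and Hdc in 6 KO and 5 WT cells. The cells of both groups are therefore named here by their marker gene alone.

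Against all other called cells of the same library, 9.28% of 5839 genes in KO and 6.83% of 5580 genes in WT were higher in members by at least 1.5-fold with the counting interval on the same side. Lower by that rule were 5.93% in KO and 6.88% in WT. A gene entered with at least 20 CPM in either set of cells. Because the members were chosen by transcripts of the same cells, these differences describe the members and are not tested. Among genes with at least 50 CPM, Csrp3 led in both libraries, at 105 CPM in KO members and 112 CPM in WT members against 0.412 and 0.515 CPM in the other cells. Its log2 ratio was 8.0 (7.53 to 8.50) in KO and 7.76 (7.37 to 8.17) in WT. Csf1, Rnase12, Cebpe, Apoc1, Fcgr3, Ms4a3, Tent5a, Lmo4, Rab44, Fam129a and Atp8b4 followed, with log2 ratios between 3.25 for Atp8b4 and 5.94 for Csf1 in KO, and between 3.26 for Fam129a and 5.01 for Cebpe in WT. Apoc1, an apolipoprotein gene, was present in 71 of 74 KO members and 44 of 47 WT members. Fcgr3, an activating receptor for IgG, stood at 185 CPM in KO and 142 CPM in WT members and at 258 and 268 CPM in KO and WT mast cells.

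Genes of basophil and eosinophil function that the rule did not use were mostly higher in members than in all other called cells together. Of 29 such genes, 14 reached the minimum level in KO and 11 in WT, all higher in members by the rule above, with a median log2 ratio of 2.43 in KO and 2.29 in WT. However, 9 of the 14 and 7 of the 11 reached that level in members alone and so had to be higher. Hdc, the enzyme that makes histamine, had 281 CPM in KO members and 53 CPM in other KO cells, and 184 CPM in WT members and 37.7 CPM in other WT cells. Cd63, a granule membrane protein used to follow basophil degranulation, had 875 CPM in KO members and 103 CPM in other KO cells, and 657 and 116 CPM in WT. Slc18a2, which loads amines into granules, had 101 CPM in KO members and 62.3 CPM in WT members, against 18.3 and 15.8 CPM in the other cells. Alox5, which starts leukotriene synthesis, had 70.8 CPM in KO members and 42.3 CPM in WT members, against 2.85 and 1.89 CPM in the other cells. Cpa3, a granule carboxypeptidase, had 408 CPM in KO members and 232 CPM in WT members, while mast cells stood at 16789 CPM in KO and 12958 CPM in WT. Summed, the 29 genes had 4339 CPM in KO and 2794 CPM in WT members, but 26370 and 21107 CPM in KO and WT mast cells. The eosinophil genes, which include the rule gene Prg2, summed to 426 CPM in KO and 78.4 CPM in WT members, and to 37.4 and 32.2 CPM in mast cells. Prg2 alone gave 218 and 16.7 CPM of the member sums, so their direction is partly set by the rule. In KO and WT the list summed to 53.3 and 63.0 CPM in the Ms4a2 group and to 33.2 and 15.3 CPM in the Mcpt8 group. In the Prg2 group, which was chosen by Prg2, it summed to 3851 and 383 CPM.

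Several defining genes of mature cells were scarce. Fcer1a, the alpha chain of the IgE receptor, was found in 3 of 74 KO and 1 of 47 WT members, at 2.34 and 0.556 CPM, against 141 and 38.7 CPM in mast cells. Its partner Fcer1g, the shared signalling chain, stood at 262 CPM in KO and 244 CPM in WT members. Itga2, an integrin subunit of mature basophils, was found in 8 KO and 3 WT members. Il4, a basophil cytokine, was found in 29 KO and 14 WT members, at 20.7 and 17.8 CPM. Siglecf, a surface lectin of eosinophils, was found in 50 KO and 26 WT members, at 36.1 and 27.3 CPM, although the Prg2 group held 8 KO and 4 WT cells. Ccr3, the eotaxin receptor, had 2 UMIs in KO members and 0 in WT members, and 0 UMIs allow up to 1.67 CPM in WT. Il5ra, the receptor that drives eosinophil growth, stood at 4.68 CPM in KO and 3.34 CPM in WT members. Alox15, a lipoxygenase of eosinophils, stood at 7.01 CPM in KO and 8.90 CPM in WT members.

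Of 20 cytokine receptor genes, 11 reached the minimum level in KO, of which 4 were higher and 2 lower in members, and 10 in WT, of which 4 were higher and 1 lower. The median log2 ratio was 0.46 in KO and 0.01 in WT, and 3 of the 11 and 4 of the 10 reached the level in members alone. Csf2rb, the shared beta chain of the IL-3, IL-5 and GM-CSF receptors, had 115 CPM in KO members and 19.0 CPM in other KO cells, and 69.5 and 19.1 CPM in WT. Il3ra, the IL-3 receptor alpha chain, had 48.8 CPM in KO members and 12.8 CPM in other KO cells, and 33.4 and 12.7 CPM in WT. Il1rl1, the IL-33 receptor, had 68.5 CPM in KO members and 28.9 CPM in WT members, against 21.0 and 13.7 CPM in the other cells and 1325 and 1096 CPM in KO and WT mast cells. Kit, the stem cell factor receptor used in the sort, had 203 CPM in KO members and 221 CPM in other KO cells, and 184 and 201 CPM in WT.

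Of 30 lineage transcription factor genes, 25 reached the minimum level in each library. Of these, 12 were higher in members in KO and 12 in WT, and 6 were lower in KO and 3 in WT. Only members reached that level for 3 of the 25 in KO and 6 in WT, and only the other cells for 3 in KO and 1 in WT. Runx1, a master factor of blood formation, had 407 CPM in KO members and 144 CPM in other KO cells, and 284 and 128 CPM in WT. Cebpa, the factor that starts granulocyte commitment, had 87.8 CPM in KO members and 10.8 CPM in other KO cells, and 49.5 and 8.87 CPM in WT. Ikzf2 and Myb were also higher in both libraries. Lmo2, a partner of the stem cell factor SCL, had 94.5 CPM in KO members and 251 CPM in other KO cells, and 139 and 264 CPM in WT. Id2, an inhibitor of E proteins, had 3.01 CPM in KO members and 3.89 CPM in WT members, while mast cells stood at 422 and 287 CPM.

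Stem cell and lymphoid genes that reached the minimum level were mostly lower in members, while those of neutrophil and granulocyte-monocyte cells were mostly higher. The genes with the lowest ratios in both libraries were Hlf, Wfdc17, Car2, Gimap6, Gcnt2, Mycn, Hoxa9 and Flt3. Hlf, a stem cell transcription factor, stood at 17.4 CPM in KO members and 167 CPM in other KO cells, and at 13.9 and 191 CPM in WT, a log2 ratio of -3.26 in KO and -3.78 in WT. Flt3, a receptor of lymphoid and dendritic progenitors, had log2 ratios of -2.71 in KO and -2.08 in WT. Of 9 stem cell genes, 4 reached the minimum level in each library and were lower, but 3 of the 4 reached it in the other cells alone and so had to be lower. Meis1, the remaining one, a homeobox factor of stem cells, had 39.4 CPM in KO members and 77.2 CPM in other KO cells, and 35.6 and 85.1 CPM in WT. Of 10 lymphoid genes, 3 reached the level, of which 2 were lower in KO and 3 in WT, and 2 of the 3 did so in the other cells alone. Of 8 erythroid genes, 5 reached it, with 3 lower in KO and 2 in WT, and of 10 monocyte and dendritic cell genes 3 reached it in KO and 2 in WT, with 2 and 1 lower. Of 8 megakaryocyte genes, 3 reached it in KO, of which 2 were higher and 1 lower, and 2 in WT, of which 1 was lower. Of 12 neutrophil and granulocyte-monocyte genes, 7 reached it in each library, of which 5 were higher and 2 lower in KO members, and 6 were higher in WT members, with medians of 1.49 and 2.62. For 1 of the 7 in KO and 2 in WT, members alone reached the level. This list holds S100a8 and S100a9, whose UMIs in WT members came mostly from a single cell. Likewise, the megakaryocyte list holds Pf4, whose UMIs in KO members came nearly all from a single cell. Chaperone genes of the endoplasmic reticulum, which fold secreted proteins, were higher: 14 of 16 compared in KO and 11 of 15 in WT, with a median log2 ratio of 0.82 in KO and 0.74 in WT. For 2 of the 16 and 3 of the 15, members alone reached the minimum level, so that these had to be higher. The list summed to 4439 CPM in KO and 3776 CPM in WT members, and to 2269 and 2128 CPM in all other called cells. Granulocyte-monocyte-primed cells were also above the latter, at 3183 CPM in KO and 2761 CPM in WT. Mast cells stood at 2272 and 2577 CPM. Calr, a calcium-binding chaperone, had 1248 CPM in KO members and 460 CPM in other KO cells, and 1050 and 433 CPM in WT. Over all genes compared the median was -0.03 in KO and -0.01 in WT.

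On the surface, members as a whole had lower median shares of the Sca1 and CD34 tags than the other cells of the sort (plot of antibody tags). The median share of a cell's antibody UMIs that came from the Sca1 tag was 1.28% in KO members and 3.0% in other KO cells, and 1.23% in WT members and 4.0% in other WT cells. Below the median of the other cells lay 66 of 74 KO members and 46 of 47 WT members. Ly6a, which encodes the Sca1 antigen, had 0.334 CPM in KO members and 9.95 CPM in other KO cells, and 0.556 and 13.0 CPM in WT. The CD34 tag, on a sialomucin of progenitors, had a median share of 0.814% in KO members and 1.81% in other KO cells, and 0.872% and 1.5% in WT. The Mcpt8 group was not low for CD34 in WT: its median share was 1.51% in KO and 1.99% in WT. In the Ms4a2 group the CD34 share was 0.722% in KO and 0.685% in WT, and in the Prg2 group 1.28% and 0.667%. The neighbouring classes were each below the other cells of both libraries for only 1 of the Sca1 and CD34 tags. Granulocyte-monocyte-primed cells had a median Sca1 share of 1.38% in KO and 1.83% in WT, but a CD34 share of 2.06% and 1.71%. Mast cells had a median CD34 share of 1.08% in KO and 0.817% in WT, but a Sca1 share of 3.34% and 3.14%. The CD117 tag, which reads the Kit protein, was the only tag with a higher median share in members of both libraries: 16.1% in KO members and 15.4% in other KO cells, and 22.9% and 18.2% in WT. As a count it was not higher in KO, with a median of 968 UMIs in KO members and 1003.5 in other KO cells, and 835 and 692 in WT. Mast cells stood at 54.6% in KO and 61.4% in WT. CD48, an antigen of committed progenitors, took 79.6% in KO members and 75.7% in other KO cells, but 70.9% and 73.2% in WT. The median shares of CD150 and CD201, both stem cell antigens, were 0.398% and 0.638% in KO members, 0.421% and 0.591% in other KO cells, 0.286% and 0.185% in WT members and 0.321% and 0.241% in other WT cells. Shares of 1 total are tied to each other, since a higher share of one tag lowers the others. Median antibody UMIs per member were 5290 in KO and 3231 in WT.

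**Figure D2:**
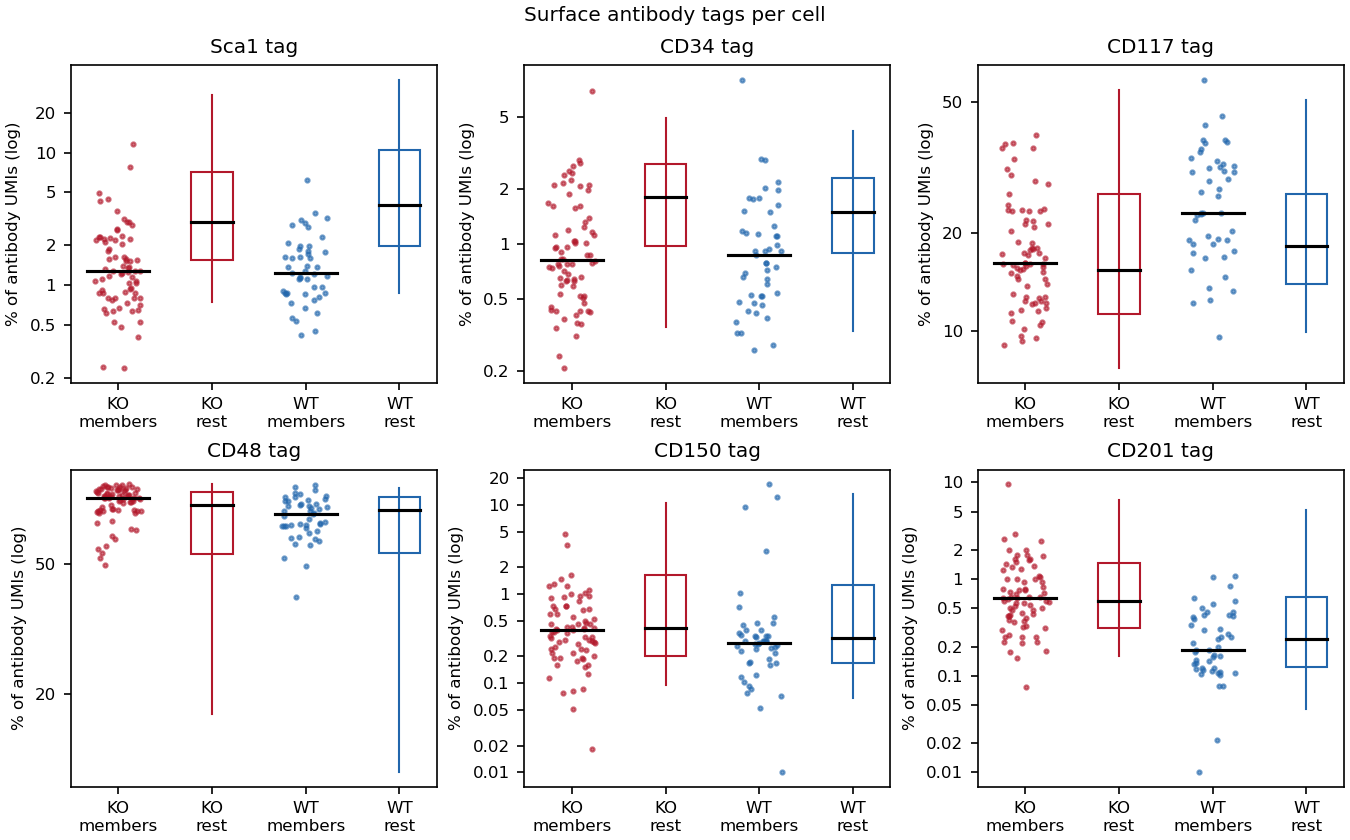
Share of each cell's antibody UMIs (percent, log axis) for 6 surface tags. Each point is 1 member cell with the median as a black line, points at 0 are drawn at 0.01%, and boxes show the quartiles of the other called cells with lines from the 5th to the 95th percentile. The medians of members lie low for Sca1 and CD34 in both libraries.

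Members made up 2.70% (2.12 to 3.38) of called cells in KO and 0.878% (0.646 to 1.17) in WT, a difference of 1.82 percentage points (1.21 to 2.53) and a ratio of 3.07 (plot of shares). Since a deeper cell reaches 3 UMIs more easily, each called cell was also thinned to 8000 UMIs. Members then made up 1.68% (46 cells) in KO and 0.336% (18 cells) in WT, a difference of 1.34 points (0.881 to 1.91). The Ms4a2 group made up 1.97% in KO and 0.598% in WT, and 1.31% and 0.243% after thinning. The Prg2 group made up 0.292% in KO and 0.0747% in WT, a ratio of 3.90, and 0.182% and 0.0187% after thinning, a ratio of 9.76 that rests on 5 KO cells and 1 WT cell. For the Mcpt8 group the shares were 0.438% in KO and 0.206% in WT, and the interval of the difference, -0.0155 to 0.570 points, included 0. Mast cells made up 1.86% in KO and 1.36% in WT, with a difference between -0.0666 and 1.14 points. Granulocyte-monocyte-primed cells made up 15.8% in KO and 10.9% in WT, a difference of 4.94 points (3.36 to 6.56) and a ratio of 1.45, so their share was higher in KO as well. The part of the sort gate in this difference was not tested. Cells with a Sca1 tag share under 1% made up 12.4% of KO and 7.29% of WT cells, and 35.1% of KO and 36.2% of WT members lay among them. Among cells with a Sca1 share of at least 1%, members made up 2.00% in KO and 0.605% in WT, a ratio of 3.31. Among cells under 1% they made up 7.62% in KO and 4.36% in WT, a ratio of 1.75, and the interval of the difference, -0.186 to 6.95 points, included 0. With 1 pool of embryos per genotype, a difference between genotypes and a difference between pools cannot be told apart.

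**Figure D3:**
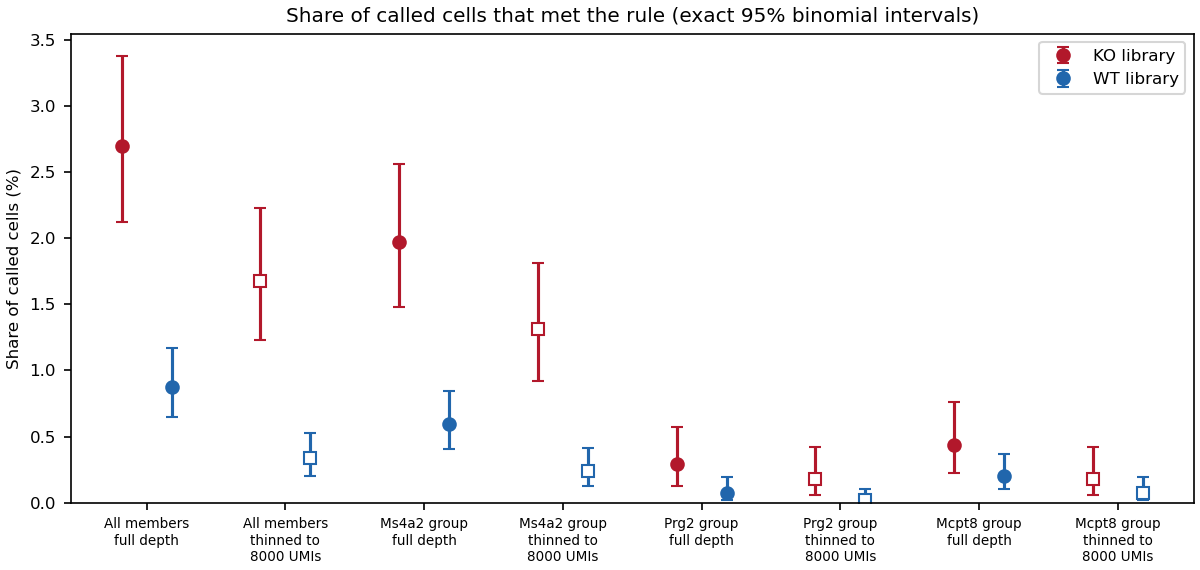
Share of called cells (percent) that met the rule and its 3 groups, KO in red left of WT in blue, with exact 95% binomial intervals. Filled circles use all UMIs and open squares use cells thinned to 8000 UMIs; the KO share of all members lies above the WT share in both.

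Bclaf1, the targeted gene, which encodes a nuclear protein of RNA processing and transcription, was lower in KO members. It had 72.5 CPM in KO members and 223 CPM in WT members, a log2 ratio of -1.62 (-1.87 to -1.38), and was detected in 65 of 74 KO and 46 of 47 WT members. In all other cells the log2 ratio was -1.52. Which exons the floxed allele loses is not given in the sources used here, and 3′ tags of a transcript that lacks other exons would still be counted, so the remaining level says nothing about intact protein.

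Immediate early genes, which cells switch on within minutes of stress or growth signals, were higher in KO members than in WT members. Between these 2 pools of member cells, 7.75% of 5648 compared genes were higher in KO and 2.21% lower by the 1.5-fold rule. Of the 21 genes of the list, 13 were compared and 13 were higher, with a median log2 ratio of 1.53, against 0.06 over all genes compared. In 11 of the 13 both libraries reached the minimum level, while Fosb and Ier5 reached it in KO alone. Of the 8 genes below it, 6 were higher and 2 lower in KO. Fos had 201 CPM in KO members and 36.2 CPM in WT members, a log2 ratio of 2.48 (2.11 to 2.87), and was detected in 55 of 74 KO and 28 of 47 WT members. Jun, its AP-1 partner, had 1013 CPM in KO members and 350 CPM in WT members. Egr1, an early growth response factor, had 350 CPM in KO members and 98.5 CPM in WT members. Zfp36, an RNA-binding protein that shortens the life of early transcripts, had 121 CPM in KO members and 20.03 CPM in WT members.

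Each of these 13 genes also had a positive log2 ratio among all other called cells, smaller than in members (plot of early response genes). Of all genes compared in the other cells, 1.44% were higher and 0.164% lower in KO, and the median over the 13 list genes that reached the minimum level there was 0.89. Within the Ms4a2 group alone, where 7.31% of genes were higher and 2.46% lower, all 13 list genes compared were higher, with a median of 1.65. For Jund the log2 ratio was 1.30 in members and 0.20 in the other cells, for Btg2, an antiproliferative gene, 1.69 and 0.64, and for Dnajb1, a heat shock co-chaperone, 1.62 and 0.48. Whether these ratios differ between members and the other cells was not tested. Among 13 heat shock genes, 11 were compared and 3 were higher in KO members: Dnajb1, Hspa1a with 499 CPM in KO and 170 CPM in WT, and Hspa1b with 541 CPM in KO and 233 CPM in WT. Hspa1a and Hspa1b are near-identical copies whose reads can be split between them. The abundant chaperones Hspa8 and Hsp90ab1 had ratios of 0.04 and -0.06.

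**Figure D4:**
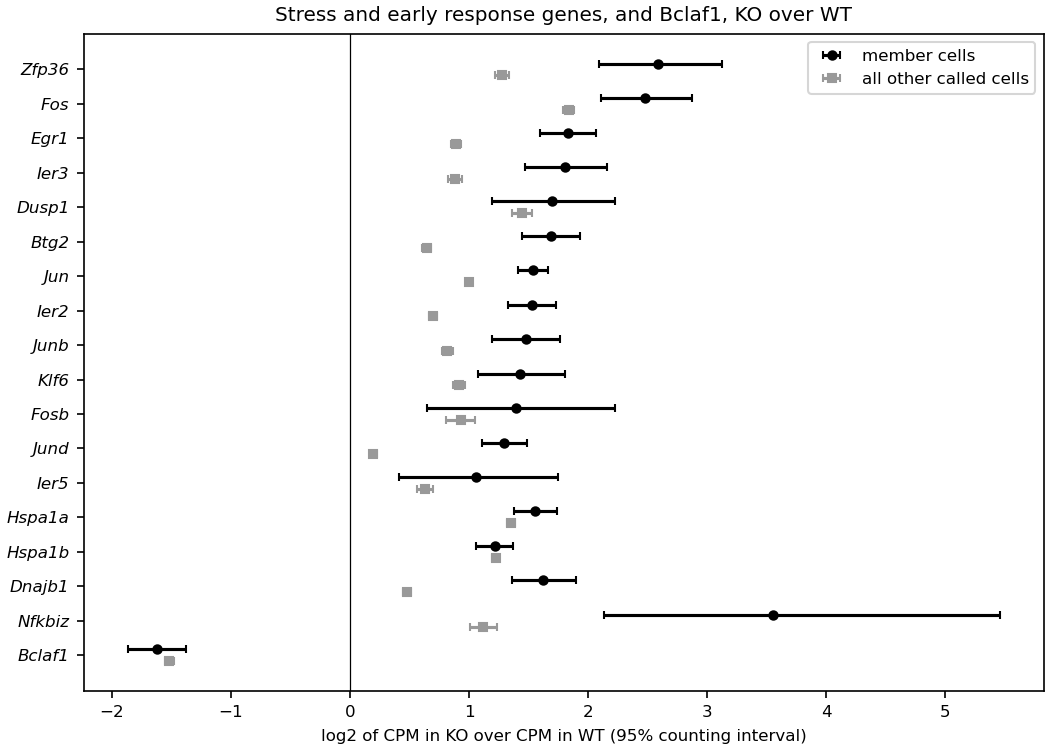
log2 ratio of CPM in KO over WT for 13 immediate early genes, 3 heat shock genes, Nfkbiz and Bclaf1, in member cells (black circles) and all other called cells (grey squares), with 95% counting intervals. All but Bclaf1 lie right of 0 in both sets, and Bclaf1 lies left of 0 in both.

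Of 11 genes of NF-kB signalling, 3 were compared and 2 of these were higher in KO members. Nfkbiz, an inducible regulator of NF-kB, was detected in 40 of 74 KO and 4 of 47 WT members, at 26.0 and 2.23 CPM, a log2 ratio of 3.55 (2.14 to 5.46) beside 1.12 in the other cells. Nfkbia, the inhibitor IkBalpha, had 210 CPM in KO members and 77.3 CPM in WT members. Nfkb1, which encodes an NF-kB subunit, had 42.4 CPM in KO members and 44.5 CPM in WT members, and its interval, -0.48 to 0.35, included 0. Tnfaip3, the A20 feedback inhibitor, lay below the minimum level and was detected in 23 KO and 2 WT members. Among signalling genes of basophils, Il18rap, a chain of the IL-18 receptor, was detected in 34 KO and 8 WT members at 27.1 and 7.79 CPM, and had a log2 ratio of 1.80 in members and 0.01 in the other cells. Il1rl1 had a ratio of 1.24 in members and 0.61 in the other cells. Osm, the cytokine oncostatin M, also below the minimum level, was detected in 26 KO and 3 WT members. Tnfaip3 and Osm were chosen after their values were seen.

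The 12 genes highest in KO over WT members by the bound nearest to 0 were Ear1, Prg2, Pf4, Scin, Nfkbiz, Fos, Zfp36, Gm20186, Prg3, Phlda1, Egr1 and Egr3. The Ear1, Prg2 and Prg3 UMIs of KO members lay mostly in the 8 cells of the Prg2 group, which held 4 cells in WT. Within this group, chosen by its Prg2 UMIs, Prg2 stood at 2195 CPM in KO and 176 CPM in WT. Single KO cells held 96 of the group's 119 Ear1 UMIs and 134 of its 247 Prg3 UMIs. Within the Ms4a2 group, which admits fewer than 3 Prg2 UMIs per cell, Prg2 had 1 UMI in each library. Prg2 was used by the rule and the split, so its values and its place among the 12 genes describe the chosen cells only. Of 128 Pf4 UMIs in KO members, 98.4% came from 1 cell, the deepest member. Scin, which encodes the actin-severing protein scinderin, was detected in 22 of 74 KO and 2 of 47 WT members, at 28.4 and 1.67 CPM. Its log2 ratio was 4.09 (2.49 to 6.39), beside 0.43 in the other cells.

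The 12 lowest genes were Stfa1, Cstdc5, S100a8, Cstdc4, S100a9, Mt2, Arhgef40, Gm45184, Gfod2, Bclaf1, Lsp1 and Cox4i2. The first 5, stefin-like protease inhibitors and calprotectin subunits of maturing neutrophils, had most of their WT member UMIs in a single cell. That share was 93.99% for Stfa1, 99.7% for Cstdc5, 97.0% for S100a8, 81.1% for S100a9 and all 61 UMIs for Cstdc4. Without the top cell of each gene the log2 ratio was -2.82 (-3.98 to -1.80) for Stfa1, -0.75 (-2.26 to 0.76) for S100a8 and -1.97 (-3.64 to -0.50) for S100a9. The stefin genes are also close paralogs that can share reads. Mt2, a metallothionein that binds zinc and copper, had 18.7 CPM in KO members and 108 CPM in WT members, and was detected in 26 of 74 KO and 12 of 47 WT members, with 40.7% of the WT UMIs in 1 cell. Its log2 ratio of -2.53 was -0.97 without cells over 2 times the median UMIs, -1.53 with at most 5% mitochondrial UMIs and -1.56 with a Sca1 tag share of at least 1%. Lsp1, a leukocyte actin-binding protein, had 22.7 CPM in KO members and 75.7 CPM in WT members. Irf8 had 12.7 CPM in KO members and 40.1 CPM in WT members, a log2 ratio of -1.66 (-2.27 to -1.07) beside -0.01 in the other cells. The Mcpt8 group, where Irf8 was mostly found, made up 12 of 74 KO and 11 of 47 WT members.

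Genes of G2 and M phase had a median log2 ratio of -0.06 in KO over WT members, over 47 of 51 genes, and 0.27 in the other cells. After thinning to 8000 UMIs, the median member carried 33 UMIs of this list in KO and 37 in WT, against 33 in the other KO cells and 22 in the other WT cells. Genes of S phase summed to a median of 16 UMIs in KO members and 17 in WT members, against 19 and 16 in the other cells. For the KO over WT ratios of the G2 and M list, the medians of the genes' own interval bounds were -0.33 and 0.28. The counts thus do not show that the genotypes were alike.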

How the data were processed

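The authors deposited raw UMI counts of 32285 genes and 6 antibodies for all barcodes, produced by Cell Ranger, per the file headers. Version 4.0.6 and build mm10 are given in the submitters' processing notes, which also name Seurat and DESeq without versions. RNA and antibody parts belong to the same library (1 per genotype). Per the labels, 20000 cells were sorted and 10000 loaded. Gene UMIs in called cells summed to 104951740 in KO and 141475677 in WT.

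Called cells had at least 8000 gene UMIs and at most 10% mitochondrial UMIs. Counts were summed over the cells of a class and scaled to CPM, using Python 3.11.15, numpy 2.4.6, pandas 2.3.3 and scipy 1.17.1. Ratios carry exact conditional binomial intervals. Shares carry intervals by the Clopper-Pearson method and their differences by Newcombe's, all at 95% and for counting error only. A gene was compared with at least 20 CPM in either class and counted as higher or lower at 1.5-fold with its interval on the same side of 0. The code was tested on simulated data. No value came from an empty-droplet correction or doublet caller except as an alternative.

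The members and the 28 gene lists were chosen with earlier results of these data known. Named genes were the rule genes, Bclaf1, the highest or defining genes of each list described, the 12 highest and 8 lowest against other cells, and the 12 highest and 12 lowest in KO over WT members. Haemoglobin, sex-linked and mitochondrial genes were left out. Tnfaip3, Osm, Il18rap, Ly6a and Irf8 were picked after their values were seen, as was the split into 3 groups. Promoters were found for 4 of 6 genes asked (not for Prg2 and Cebpe). Alternatives covered depth, mitochondrial and marker limits, scaling, cell weighting, thinning, deep cells, the Ms4a2 group and the Sca1 share.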

Additional observations from a re-analysis of the deposited data

Results flagged for a closer look

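Among the 12 highest and 12 lowest genes of KO over WT members, 3 had a log2 ratio of the opposite sign in all other called cells, with both counting intervals clear of 0. Other genes were not screened by this rule. The difference between these ratios was not tested. For Stfa1, a stefin protease inhibitor, the ratio was -6.73 in members and 0.72 in the other cells, and 93.99% of the UMIs in WT members came from 1 cell. For S100a8, a calprotectin subunit, the ratio was -5.38 in members and 0.42 in the other cells, with 97.0% of the UMIs in WT members from 1 cell. For Mt2, a metallothionein, the ratio was -2.53 in members and 1.15 in the other cells, with 40.7% of the UMIs in WT members from 1 cell. Its ratio in members was -0.97 without cells over 2 times the median UMIs, -1.53 with at most 5% mitochondrial UMIs and -1.56 with a Sca1 tag share of at least 1%. Mt2 stood at 18.7 CPM in KO members and 508 CPM in other KO cells, and at 108 CPM in WT members and 229 CPM in other WT cells.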

How the results depend on the processing

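Neither sign nor call could be tested, since each genotype was 1 library, and depth limits the Prg2 and Mcpt8 groups most. No paired analysis was possible because each genotype had 1 library and no test was made. The share difference, the Bclaf1 ratio and the immediate early median stayed within their counting intervals (for the median, within the median bounds of its genes) under every alternative run. Tags with a higher median in members of both libraries numbered 2 rather than 1 with at least 6 marker UMIs, without cells over 2 times the median UMIs, in the Ms4a2 group only and with a Sca1 share of at least 1%, and 3 with thinned cells. CD117 was higher, and CD34 and Sca1 lower, in all 8 alternatives. The G2 and M median was -0.33 with at least 6 marker UMIs and -0.70 with a Sca1 share of at least 1%. The 438 genes higher in KO became 146 after thinning and 686 with no minimum level. The 125 lower became 208 with at least 6 marker UMIs, 238 with no minimum level and 288 with a Sca1 share of at least 1%. The KO median of 2.43 over basophil and eosinophil genes became 2.65 with at least 16000 UMIs, 2.80 with at least 6 marker UMIs, 2.64 thinned, 2.17 with cells weighted equally, 2.19 without deep cells and 2.59 with a Sca1 share of at least 1%. The WT median of 2.29 became 2.63 with at least 16000 UMIs, 2.50 with at most 5% mitochondrial UMIs, 2.60 with at least 6 marker UMIs, 3.45 thinned, 1.91 with cells weighted equally, 1.98 with no minimum level, 2.45 without deep cells and 2.65 in the Ms4a2 group. Of the 690 other values, 500 stayed within their intervals and 8 changed sign, each to a value whose counting interval included 0. In the Ms4a2 group only, these were Prg2 at -0.89, with 1 UMI in each library, S100a8 at 2.28, Gm45184 at 1.91 and Cstdc5 at 0.69. Cstdc5 also went to 1.55 with Prg2 not counted and to 1.25 without its top cell. Pf4 went to -0.35 without deep cells and to -1.04 with a Sca1 share of at least 1%. The cause was not tested. The Ms4a2 group, Sca1 share and top cell alternatives were chosen after seeing the data.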
